A study of Chlorocebus aethiops vervet with 14 samples.

Results

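G protein-gated inwardly rectifying potassium (GIRK) channels are built from subunits encoded by KCNJ3, KCNJ5, KCNJ6 and KCNJ9, and their probe sets were followed here in the lateral geniculate nucleus of the vervet monkey (Chlorocebus aethiops). Every probe set whose only platform symbol was 1 of these 4 genes was taken, which gave 5 of the 52766 non-control probe sets on the rhesus array: 3 for KCNJ5, 1 for KCNJ6 and 1 for KCNJ9. On the human array the same symbols gave 10 of 54675 probe sets: 6 for KCNJ5, 2 for KCNJ6 and 2 for KCNJ9. KCNJ3 was not analysed here. These 3 genes with a rhesus probe set stand among 14132 genes so named on the array. KCNJ6 was chosen by its measured values, because its signal was higher in magnocellular than in parvocellular captures, so that difference is given below as a description and carries no test. KCNJ5 and KCNJ9 came in by symbol alone.

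GIRK channels open when a receptor coupled to Gi/o proteins, such as the GABA-B receptor, releases G protein beta-gamma subunits that bind the channel. The potassium current that follows moves the neuron away from its firing threshold, and regulators of G protein signalling (RGS proteins) shorten it. KCNJ6 encodes GIRK2, a main subunit of brain channels, KCNJ9 encodes GIRK3, and KCNJ5 encodes GIRK4, best known from the atria of the heart. In the lateral geniculate nucleus, the part of the thalamus that passes retinal input to visual cortex, magnocellular (M) layers hold large relay cells and parvocellular (P) layers hold smaller ones.

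The animals were untreated adult males, and no genotype or agent set the groups apart. Laser capture took either single neuronal cell bodies or the whole tissue of a layer, from M or from P layers, giving 4 groups of 3 rhesus arrays: M neurons, P neurons, M layers and P layers. Each capture was of about 3000 laser pulses, and each group came from 3 animals. The sources used here do not say whether arrays with the same number in different groups share an animal. RNA of 2 M samples was split and also put on the human HG-U133 Plus 2.0 array, and their labels disagree: the titles say layer, while the source and protocol fields say neuronal cell bodies. The sample codes in their instrument records are those of M neuron arrays 1 and 2. They are called human arrays 1 and 2 and stand in no group.

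The deposited signal is a linear intensity whose scale on each array is unknown. Median signal per array ran from 11.9 to 14.8 on the rhesus arrays and was 11.3 and 9.78 on the human ones, and the number of arrays limits the precision. In the check of the captures over both layer types, 3 of 6 tested neuronal markers were called higher in neuron captures and none lower. Of all 26383 tested probe sets, this contrast called 19.5% higher in neuron captures and 4.59% lower. The neuronal genes THY1 and ENO2 were higher in neuron than in layer captures by 1.10 (adjusted p = 0.000153) and 0.91 (adjusted p = 7.9e-05) on the log2 scale of the limma fit, while SYT1 (-0.028, adjusted p = 0.833), GAP43 (-0.11, adjusted p = 0.508) and UCHL1 (0.50, adjusted p = 0.142) were not called. Of 8 astrocyte markers, 5 were called lower in neuron captures, ALDH1L1 and SLC4A4 were not called, and ALDOC was called higher by 0.49 (adjusted p = 0.000900). The astrocyte genes GFAP and SLC1A3 fell in neuron captures by 0.73 (adjusted p = 0.00150) and 1.09 (adjusted p = 1.33e-05). Of 5 tested oligodendrocyte markers, 3 were called lower in neuron captures. They were ENPP2 (-1.02, adjusted p = 2.29e-05), UGT8 (-0.97, adjusted p = 1.22e-05) and MAL (-0.50, adjusted p = 0.00988). MBP (-0.19, adjusted p = 0.153) and CNP (0.020, adjusted p = 0.896) were not called. Glial transcripts were nevertheless present in the neuron captures. There the oligodendrocyte gene MBP had mean signals of 5211 (M) and 5506 (P), beside 5850 and 6273 in M and P layers. The glutamate transporter SLC17A7 was near the lower end of the signals in all 4 groups, at mean signals of 1.28 to 4.62.

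KCNJ6 was read by 1 probe set, MmuSTS.1404.1.S1_at. Its signal was 75.1, 142 and 195 on M neuron arrays 1, 2 and 3. On P neuron arrays 1, 2 and 3 it was 30.8, 32.3 and 37.3. The lowest M neuron array thus lay above the highest P neuron array. In the whole-layer captures the signal was 75.5, 129 and 182 on M layer arrays 1, 2 and 3. It was 49.8, 49.2 and 53.6 on P layer arrays 1, 2 and 3, again with no overlap between M and P. This difference chose the gene, so the order in either capture is a description and lends no support. The share of all probe sets with such an order was not counted. All 12 values exceeded the median signal of their array, from 2.43 times on P neuron array 2 to 13.7 times on M neuron array 3.

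**Figure D1:**
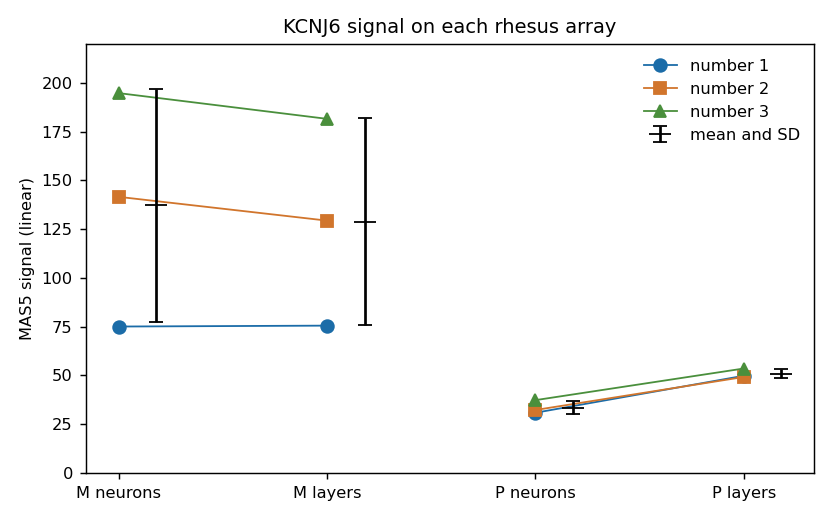
KCNJ6 MAS5 signal (linear axis) on each of the 12 rhesus arrays by group. Symbols give the array number, lines join arrays of the same number within a layer type, and black marks are the group mean and SD (n = 3). M arrays spread from 75.1 to 195, while P neurons stay between 30.8 and 37.3 and P layers between 49.2 and 53.6.

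Mean KCNJ6 signal was 137 ± 60.0 (SD, n = 3) in M neurons, 129 ± 53.0 (SD, n = 3) in M layers, 50.9 ± 2.35 (SD, n = 3) in P layers and 33.5 ± 3.40 (SD, n = 3) in P neurons. M neurons and M layers, neighbours at the top of this order, overlapped almost fully. M over P was 4.10-fold in neurons and 2.53-fold in layers as a ratio of mean signals. On the log2(signal + 16) scale used for all fits, which understates the change of dim probe sets, M minus P was 1.55 ± 0.27 (SE) in neurons, 1.05 ± 0.27 (SE) in layers and 1.30 ± 0.19 (SE) over both captures. These are the values that chose the gene. In these bulk captures, fewer cells that carry KCNJ6 and less KCNJ6 RNA per cell cannot be told apart.

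The spread of KCNJ6 among arrays was unlike in the layer types. The coefficient of variation was 43.7% in M neurons and 41.2% in M layers, against 10.2% in P neurons and 4.62% in P layers; this difference in spread was not tested. In both M captures the array numbered 1 was the lowest and the array numbered 3 the highest. M neuron over M layer of the same number was 0.994, 1.09 and 1.07 for numbers 1, 2 and 3, so the captures of 1 number differed far less than the numbers did. As deviations from the group mean on the log2 scale, number 1 was at -0.67 in M neurons and -0.59 in M layers, and number 3 at 0.54 and 0.52. The M over P ratio therefore varied with the number, with extremes of 2.43 and 5.22 for neurons and of 1.52 and 3.39 for layers.

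The fluidics station recorded for each array differed among the groups: all M neuron arrays and P neuron array 1 ran on station 3, P neuron arrays 2 and 3 with M layer arrays 1 and 2 on station 4, and M layer array 3 with all P layer arrays on station 5. Within station 3, KCNJ6 was higher in M than in P neurons by 1.63 ± 0.40 (SE), with a single P array. Within station 5 it was higher in the M than in the P layers by 1.56 ± 0.24 (SE), with M layer array 3 alone on the M side. With the station as a block, the differences rested on these same arrays and so add no further comparison. They were 1.63 ± 0.37 (SE) in neurons and 1.56 ± 0.37 (SE) in layers.

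Whether KCNJ6 signal came with the neuronal cell bodies or with the whole layer could be tested, since this contrast did not choose the gene. In M layers, neurons minus layers was 0.068 ± 0.27 (SE; limma adjusted p = 0.920), with a 95% interval from -0.51 to 0.64, and under quantile normalization the sign turned to -0.13. In the P layers, KCNJ6 was lower in every neuron array than in every layer array, and P layer over P neuron of the same number was 1.61, 1.52 and 1.43. The mean ratio of 1.52 corresponded to -0.44 ± 0.27 (SE) for neurons minus layers, with a 95% interval from -1.01 to 0.14. That difference did not pass the test (limma unadjusted p = 0.128, adjusted p = 0.349). Of all 26383 probe sets tested, 6.15% likewise had all P neuron arrays below all P layer arrays. With the station as a block the value in P turned to 0.38 ± 0.49 (SE); no station ran both captures of either layer type.

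For the M minus P difference of KCNJ6 to differ between captures, the interaction of layer type and capture was fitted. It was 0.50 ± 0.39 (SE; limma unadjusted p = 0.210, adjusted p = 1.00), with a 95% interval from -0.31 to 1.31 on the log2 scale. The larger ratio in neurons than in layers was thus not separated from array spread. No probe set of the 26383 passed the limma interaction test (0% called), and 742 had an unadjusted p under 0.05.

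KCNJ5 was read by 3 rhesus probe sets, of which only MmugDNA.43523.1.S1_at reached the mean signal of 12.65 required for testing. Its signal was 20.9, 11.8 and 17.6 on M neuron arrays 1, 2 and 3, and 9.01, 19.1 and 10.8 on P neuron arrays 1, 2 and 3. In the layers it was 13.7, 11.6 and 15.8 (M arrays 1, 2 and 3) against 25.1, 14.4 and 17.9 (P arrays 1, 2 and 3). The groups overlapped in both captures, and the values lay around the array medians.

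The KCNJ5 probe set was called by limma in none of the 7 contrasts, and its smallest unadjusted p was 0.191. M minus P was 0.18 ± 0.22 (SE; limma adjusted p = 0.928; 95% interval -0.27 to 0.64) in neurons, where 0.296% of all tested probe sets were called. In layers it was -0.23 ± 0.22 (SE; limma adjusted p = 0.987; 95% interval -0.69 to 0.22), against 0.159% called. Over both captures it was -0.025 ± 0.15 (SE; limma adjusted p = 0.984), against 0.83% called. Neurons minus layers was 0.14 ± 0.22 (SE; limma adjusted p = 0.765) in M, where 10.7% of all tested probe sets were called, and -0.28 ± 0.22 (SE; limma adjusted p = 0.462) in P, where 10.2% were. Over both layer types it was -0.074 ± 0.15 (SE; limma adjusted p = 0.783), against 24.1% called, and the interaction was 0.42 ± 0.31 (SE; limma adjusted p = 1.00).

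The other members lay under the signal required for testing. KCNJ5 probe set MmugDNA.41752.1.S1_at ran from 1.08 to 11.0 over the 12 arrays, always under the array median. MmugDNA.41752.1.S1_s_at, which carries the same design number, ran from 2.02 to 17.9 and exceeded the median on M neuron array 2 and M layer array 1 alone. KCNJ9 probe set MmuSTS.2933.1.S1_at was between 0.695 and 2.49 on every rhesus array. When all probe sets were fitted without the signal requirement, none of these 3 was called in any contrast. KCNJ9 then differed between groups by no more than 0.021 on the log2 scale, a scale on which signals this low barely move.

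**Figure D2:**
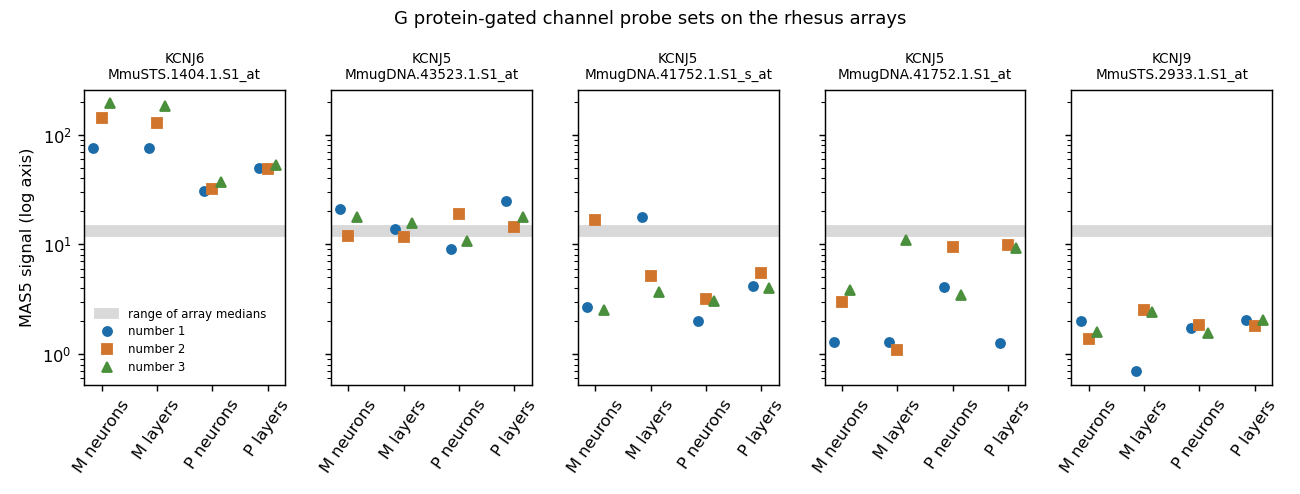
MAS5 signal (log axis) of the 5 rhesus probe sets on the 12 arrays, by group. Symbols give the array number and the grey band is the range of the array medians, 11.9 to 14.8. The KCNJ6 points are all above the band and the KCNJ9 points all below it. KCNJ5 probe set MmugDNA.43523.1.S1_at has points on both sides of the band, and the other KCNJ5 probe sets lie under it on most arrays.

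The 2 human arrays gave another reading of the family in M tissue, with no P sample and no replicate group. KCNJ6 probe set 210454_s_at read 61.7 on array 1 and 95.4 on array 2, or 5.48 and 9.76 times the array median. KCNJ6 probe set 232411_at read 15.97 and 28.8. Array 2 exceeded array 1 by 1.55 times and 1.80 times on these probe sets, while the median signal of array 2 was 0.868 times that of array 1. On the rhesus arrays, array 2 over array 1 for KCNJ6 was 1.89 in M neurons and 1.71 in M layers. The human arrays are splits of samples also on rhesus arrays, so they repeat those samples and add no animals.

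KCNJ9 read differently on the human arrays and on the rhesus arrays. KCNJ9 probe set 244113_at had signals of 184 and 238 on human arrays 1 and 2, which were 16.3 and 24.3 times the array medians. The other KCNJ9 probe set, 207527_at, read 6.46 and 6.58, under the medians. The rhesus and both human probe sets thus disagreed on the place of KCNJ9 within its array, and levels of different probe sets cannot be set against each other. The vervet RNA was read with probes made for other species, and the part of mismatches in this was not tested.

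Of the 6 KCNJ5 probe sets on the human array, 208404_x_at (30.3 and 23.4) and 211304_x_at (37.2 and 26.2) lay above the median on both arrays. The suffix of these names marks probes that can bind other transcripts too. KCNJ5 probe set 238780_s_at fell on both sides of the median, with 26.7 on array 1 and 7.94 on array 2, and 208397_x_at did so the other way round, with 5.42 and 12.4. The remaining KCNJ5 probe sets, 211817_s_at and 237186_at, read between 2.63 and 5.93. In all, 5 of the 10 members exceeded the array median on both human arrays.

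**Figure D3:**
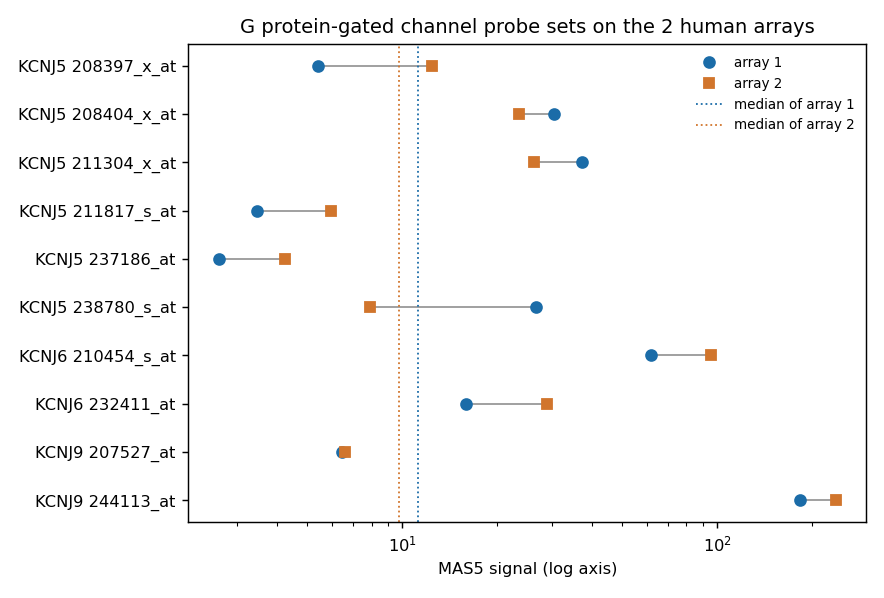
MAS5 signal (log axis) of the 10 member probe sets on human arrays 1 (circles) and 2 (squares), with dotted lines at each array's median (11.3 and 9.78). Both KCNJ6 probe sets and KCNJ9 244113_at lie to the right of the medians with array 2 above array 1.

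The partners of the channel were described from 8 lists of receptors, G protein subunits, regulators, trafficking factors and other potassium channels. Of 116 symbols listed, 80 had a probe set and 54 were bright enough to test, with the brightest probe set standing for a gene. None of the 54 was called by limma for M minus P in neurons, in layers or over both captures, where 0.296%, 0.159% and 0.83% of all tested probe sets were, so that a count of 0 among 54 is near the background. An unadjusted p under 0.05 was found for 2, 2 and 5 of them, or 3.7%, 3.7% and 9.26%, against 7.47%, 5.8% and 9.94% of all. Neurons minus layers over both layer types called 7 of the 54 higher in neurons, where 19.5% of all tested probe sets were, and 4 lower, where 4.59% were. Together that was 20.4% of the listed genes tested, against 24.1% of all tested probe sets. Within M, 6 of the 54 were called and within P 3, against 10.7% and 10.2% of all. With the fluidics station as a block, no listed gene was called in any of these contrasts. That block left few calls among all 26383 tested probe sets too. Neurons minus layers then had 36 calls for M, 112 for P and 626 with the layer types pooled. M minus P had 10 calls among neuron captures, 14 among layer captures and 51 with the captures pooled. A count of 0 among 54 cannot be told from that background.

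Among the receptors that open GIRK channels, 7 of 30 could be tested. The nociceptin receptor gene OPRL1 had mean signals of 56.7, 71.2, 37.6 and 44.8 in M neurons, P neurons, M layers and P layers. It rose in neurons over layers by 0.46 ± 0.16 (SE; limma adjusted p = 0.0410), a call that only 10 of 21 alternative settings kept. The adrenergic receptor gene ADRA2A had the smallest p of the list for M minus P, at 0.26 ± 0.17 (SE; limma adjusted p = 0.690). The GABA-B subunit genes GABBR1 and GABBR2 were not analysed here.

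KCTD8, an auxiliary subunit of the GABA-B receptor, was the 1 gene of 3 in its list that could be tested. Its signal was 184, 127 and 273 on M neuron arrays 1, 2 and 3, and 235, 251 and 368 on P neuron arrays 1, 2 and 3. In the layers it was 112, 108 and 194 (M) and 170, 194 and 164 (P). M and P arrays overlapped in both captures. M minus P over both was -0.45 ± 0.18 (SE; limma adjusted p = 0.361), opposite in sign to KCNJ6. Neurons minus layers was 0.53 ± 0.18 (SE; limma adjusted p = 0.0368), and 10 of 21 alternatives kept this call.

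None of the 3 testable Gi/o alpha subunit genes was called in any of the 7 contrasts, nor had any an unadjusted limma p under 0.05 in them, and GNAO1, the main Go alpha subunit of brain, differed between M and P by 0.14 ± 0.14 (SE; limma adjusted p = 0.833). Of the 10 testable beta and gamma subunit genes, GNB5, the beta subunit that pairs with RGS proteins such as RGS7, rose in neurons over layers by 0.62 ± 0.18 (SE; limma adjusted p = 0.0154), a call kept by 18 of 21 alternatives, with a lowest value of 0.34. GNG4, a gamma subunit, had the smallest p of its list for M minus P, at 0.45 ± 0.16 (SE; limma adjusted p = 0.277), with mean signals of 22.6 and 12.4 in M and P neurons and 30.6 and 17.6 in M and P layers.

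Of the RGS list, 16 of 25 genes were tested and 3 were called between captures over both layer types. RGS7, which speeds the closing of GIRK channels, rose in neurons over layers by 0.59 ± 0.15 (SE; limma adjusted p = 0.00798), and its dimmer probe set by 1.09 ± 0.20 (SE; limma adjusted p = 0.000494). The call of the brighter RGS7 probe set was kept by 18 of 21 alternatives and lost under quantile normalization, with the station as a block and without M neuron 3 and M layer 1 together, with a lowest value of 0.30. RGS2, which acts mainly on Gq, rose by 0.74 ± 0.17 (SE; limma adjusted p = 0.00297). RGS10 fell by 0.75 ± 0.16 (SE; limma adjusted p = 0.00213), from mean signals of 49.7 and 46.6 in M and P layers to 21.4 and 24.5 in M and P neurons. The other 2 RGS10 probe sets had the opposite sign, at 0.14 and 0.13, and were not called, and the other probe sets of GNB5 (0.88) and RGS2 (0.27) were not called either.

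RGS4, a regulator of Gi/o and Gq signalling, came nearest to a call for M minus P. Its signal was 1219, 1032 and 1082 on M neuron arrays 1, 2 and 3, all below the 1534, 1543 and 1473 of the P neuron arrays. In layers it was 840, 1253 and 1067 (M) against 1207, 1699 and 1111 (P), and the groups overlapped. M was below P in all 6 pairs of arrays with the same number. How many of all probe sets had either order was not counted. M minus P over both captures was -0.39 ± 0.12 (SE; limma adjusted p = 0.190), opposite in sign to KCNJ6. It was called at -0.45 under quantile normalization (limma adjusted p = 0.00791) and at -0.44 with arrays scaled to one median (limma adjusted p = 0.0202). The other RGS4 probe sets differed between M and P by -0.21 and -0.089 and were not called, but for neurons minus layers they were called at 0.50 (limma adjusted p = 0.0162) and 0.84 (limma adjusted p = 0.0112), where the brightest was not (0.15).

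GIRK channels need the lipid PIP2 to open, and PI4KA and PIP5K1B feed its supply. Of the 6 genes tested for trafficking and PIP2 supply, 2 were called higher in neurons over both layer types and 1 lower. Of all tested probe sets 19.5% and 4.59% were, and counts this small cannot be told from that background. PI4KA, a phosphatidylinositol 4-kinase, was at 1054, 871 and 1181 on M neuron arrays against 561, 723 and 806 on M layer arrays (arrays 1, 2 and 3), and at 997, 1018 and 1218 on P neuron arrays against 722, 753 and 676 on P layer arrays. Neuron and layer arrays did not overlap in either layer type, and the share of all probe sets with this order was not counted. The difference over both layer types was 0.57 ± 0.12 (SE; limma adjusted p = 0.00167). PIP5K1B, a phosphatidylinositol phosphate kinase, rose by 0.65 ± 0.15 (SE; limma adjusted p = 0.00401). DLG1, a scaffold protein of synapses and epithelia, fell by 0.47 ± 0.13 (SE; limma adjusted p = 0.00900), and its other tested probe set was not called (-0.16, limma adjusted p = 0.453). In this list of 10, with 6 tested, NCAM1, an adhesion molecule, had the smallest p for M minus P, at 0.21 ± 0.12 (SE; limma adjusted p = 0.624). Of its 10 probe sets, 1 that was not the brightest was called for neurons minus layers, at 0.46 (limma adjusted p = 0.0227).

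Among the other inward rectifiers, 7 of 14 listed genes were tested and none was called between M and P. KCNJ10, the Kir4.1 channel of astrocytes and oligodendrocytes, was at 500, 290 and 432 on M neuron arrays against 801, 890 and 931 on M layer arrays (arrays 1, 2 and 3). On P neuron arrays it was at 505, 343 and 387 against 736, 588 and 698 on P layer arrays. All neuron arrays lay below all layer arrays of their layer type, an order that 6.15% of all tested probe sets had in P. The share in M was not counted. KCNJ10 fell in neurons by 0.90 ± 0.14 (SE; limma adjusted p = 0.000126), and its dimmer probe set by 0.47 ± 0.14 (SE; limma adjusted p = 0.0180).

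KCNJ8, a subunit of ATP-sensitive channels of blood vessels, fell in neurons by 0.88 ± 0.21 (SE; limma adjusted p = 0.00406), but with the station as a block the value was 0.022 (limma adjusted p = 0.986). KCNJ2, a constitutive inward rectifier of neurons and heart, had the smallest p of this list for M minus P, at 0.21 ± 0.11 (SE; limma adjusted p = 0.551). The medians of the list were 0.087 for M minus P over both captures and -0.24 for neurons minus layers, beside 0.033 and 0.13 over all tested probe sets. Quantile normalization moved the latter from 0.13 to 0.0060, and all 11 listed genes called over both layer types kept their direction under it, but OPRL1, KCTD8, GNB5 and RGS7 were no longer called. Of 4 testable two-pore leak channel genes, none was called by limma in any of the 7 contrasts. KCNK5 alone had an unadjusted p under 0.05, for neurons minus layers in P and over both layer types, and KCNK3 had the smallest p for M minus P, at 0.15 ± 0.16 (SE; limma adjusted p = 0.843).

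**Figure D4:**
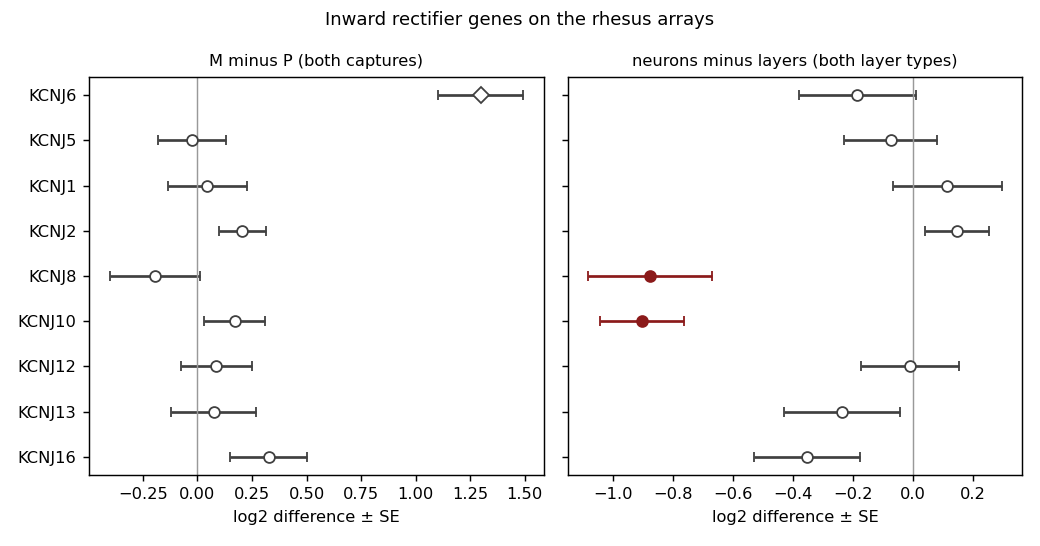
Log2 difference (points) with its SE (bars) for inward rectifier genes on the 12 rhesus arrays, M minus P over both captures at left and neurons minus layers over both layer types at right. Filled points passed an adjusted p of 0.05, and the diamond marks the KCNJ6 value that chose the gene, 1.30. KCNJ8 and KCNJ10 are the filled points, at -0.88 and -0.90.

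Genes with the pattern most like KCNJ6 over the 12 rhesus arrays were ranked by Pearson r among 9347 named genes, as a description over arrays that share groups, captures and amplification. The 5 highest were KLHL28 (r = 0.934), SLC12A1 (r = 0.890), CGNL1 (r = 0.873), PSMF1 (r = 0.869) and PPP1CB (r = 0.864). SLC12A1, a sodium-potassium-chloride cotransporter, had the widest separation of these, with mean signals of 618 ± 161 (SD, n = 3) in M neurons, 66.6 ± 35.9 (SD, n = 3) in P neurons, 425 ± 185 (SD, n = 3) in M layers and 44.5 ± 9.16 (SD, n = 3) in P layers. KLHL28, the likest, was at 222 ± 34.5 (SD, n = 3) in M neurons and 133 ± 19.9 (SD, n = 3) in P neurons.

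The 5 lowest were BHLHE22 (r = -0.922), PTPRK (r = -0.915), ST14 (r = -0.910), RALYL (r = -0.897) and PLAAT3 (r = -0.891). BHLHE22, a neuronal transcriptional regulator of the bHLH class, was at 81.7 ± 41.8 (SD, n = 3) in M neurons and 770 ± 398 (SD, n = 3) in P neurons, and at 87.6 ± 38.1 (SD, n = 3) in M layers and 614 ± 226 (SD, n = 3) in P layers. PTPRK, a receptor tyrosine phosphatase, was at 708 ± 225 (SD, n = 3) and 1129 ± 132 (SD, n = 3) in M and P neurons.

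Markers of other cells were set beside KCNJ6, from 8 lists with 38 of 54 markers on the array and 35 tested. None was called by limma for M minus P in neurons or in layers, where 0.296% and 0.159% of all tested probe sets were. Of the 35, 5 had an unadjusted p under 0.05 in each capture, or 14.3%, against 7.47% and 5.8% of all tested probe sets. In the layers, summed astrocyte marker signal (8 of 10 markers) was 9729 to 9924 in M and 7295 to 8198 in P. Summed interneuron marker signal (2 of 3 markers, nearly all from GAD1) was 815 to 1140 in M layers and 477 to 577 in P layers. The other interneuron marker, GAD2, had mean signals of 25.8 in M layers and 27.6 in P layers. In the neuron captures the astrocyte and interneuron sums overlapped between M and P, at 6273 to 8571 and 6255 to 7078 for astrocytes and 321 to 918 and 379 to 568 for interneurons. The neuron marker sum (6 of 10 markers) was 20820 to 21400 in M neurons, 17660 to 21350 in P neurons, 14060 to 19770 in M layers and 16270 to 20910 in P layers. The relay cell marker sum (2 of 3 markers, nearly all from TCF7L2) was 3491 to 3812 in M layers and 4732 to 5549 in P layers. TCF7L2 itself was not called there (-0.51, limma adjusted p = 0.114). The relay sum overlapped between M and P neurons, at 4419 to 5679 and 5404 to 5709. Oligodendrocyte sums (5 of 11 markers) overlapped, at 12790 to 13820 and 12780 to 14380 in M and P layers and 9601 to 12650 and 11110 to 11850 in M and P neurons. Sums for oligodendrocyte precursors (3 of 4 markers) were 141 to 151 in M layers and 86.7 to 124 in P layers, and 67.5 to 149 and 80.7 to 124 in M and P neurons. Microglial sums (7 of 7 markers) were 252.4 to 296 in M layers and 221 to 251.5 in P layers, and 129 to 213 and 173 to 179 in M and P neurons. Vascular sums (5 of 6 markers) were 171 to 230 and 191 to 216 in M and P layers, and 99.3 to 162 and 132 to 163 in M and P neurons. No marker with a probe set was at 0, but SLC17A7 was near the lower end of the signals in every group. The share of all probe sets with M and P layer arrays fully apart was not counted, so ranges that do not overlap are a description. The part of cell makeup in the KCNJ6 values was not tested.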

How the data were processed

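RNA from 12 rhesus and 2 human Affymetrix arrays was analysed. The authors deposited 1 linear intensity per probe set, made with MAS5 per the submitters' processing notes; its version, background setting and scaling target are not given in the sources used here. Detection calls were not used. The RNA had been amplified through repeated rounds with the Affymetrix system, per the labels' protocols, which can distort relative levels.

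Of 52766 non-control rhesus probe sets, 24956 carried 1 symbol in the platform annotation, which can be old, 361 several and 27449 none. The 26383 probe sets with a mean signal at or above the median over probe sets (12.65) entered a linear model (R 4.3.3, limma 3.58.1) of log2(signal + 16) that held the 4 group means, 8 residual and 11.7 prior degrees of freedom and an intensity trend. Tests were two-sided with Benjamini-Hochberg adjustment over all tested probe sets, and calls had an adjusted p under 0.05. Replicates are arrays of separate animals.

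The members, lists and rules were chosen with earlier results of these data known. Named genes were all members, each listed gene called in a contrast, the gene of each list with the smallest p for M minus P over both captures, the 5 genes at each end of Pearson r with KCNJ6 and the 5 highest on deviations from group means, and marker lists by counts and sums with defining genes. THY1, ENO2, GFAP, SLC1A3, MBP and SLC17A7 stand for the marker lists. SYT1, GAP43, UCHL1, ALDH1L1, SLC4A4, ALDOC, ENPP2, UGT8, MAL, CNP, GAD1, GAD2, TCF7L2 and KCNK5 were named after their values were seen.

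Same-numbered arrays deviated together weakly between M and P neurons (r = 0.180 to 0.211) and between M and P layers (r = 0.145 to 0.259). The same held between neurons and layers in M (r = 0.136 to 0.195) and in P (r = 0.0997 to 0.157). The labels do not state a pairing, so a pairing by number would rest on these values alone. The main fits ignored the numbers, and a replicate block was run only as an alternative.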

Additional observations from a re-analysis of the deposited data

How the results depend on the processing

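M minus P of KCNJ6, the difference that chose the gene, ran over the alternatives from 1.00 to 1.90 in neurons (1.28 to 1.88 leaving out 1 array). In layers it ran from 0.71 to 1.56 (0.79 to 1.34 leaving out 1 array). These refits use the arrays that chose the gene, so they describe the effect of the settings and are no test. The lowest values came from a pseudocount of 64 (1.00 in neurons, 0.71 in layers, 0.85 over both captures), and the highest from a pseudocount of 1 in neurons (1.90) and from the station as a block or within station 5 in layers (1.56 in both). KCNJ6 was not called for neurons minus layers or the interaction under any alternative. In M its sign turned with quantile normalization (-0.13) and without M neuron 3 and M layer 1 together (-0.50), and ran from -0.23 to 0.40 leaving out 1 array, negative without M neuron 3 (-0.20) or M layer 1 (-0.23). With the station block it turned to 0.38 in P (-0.49 to -0.40 leaving out 1 array) and to 0.41 over both layer types, and the interaction turned to -0.064 without M neuron 3 and M layer 1 (0.21 to 0.84 leaving out 1 array). KCNJ5 had no call under any alternative; its M minus P over both captures turned to 0.12 with the station block and ran from -0.074 to 0.048 leaving out 1 array (positive without M neuron 2, P neuron 2, M layer 2 or P layer 1), and its neurons minus layers over both turned to 0.22 with the station block. With the replicate block, KCNJ6 was 1.55 ± 0.22 in neurons and 1.05 ± 0.22 in layers, and neurons minus layers in M was 0.068 (adjusted p = 0.890); it changed no call among the tested contrasts of KCNJ6 and KCNJ5. For neurons minus layers in P, the replicate block gave 8 listed genes called in place of 3. Over all 26383 tested probe sets it gave 3581 calls in place of 2682.

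Listed genes called for M minus P over both captures numbered 1 (RGS4) with quantile normalization and with arrays scaled to one median, against 0. For neurons minus layers in M, the count of 6 became 2 without the signal filter, 3 with only the groups compared, 0 with the station block and 2 without M neuron 3 and M layer 1, and ran from 2 to 7 leaving out 1 array (2 or 3 without M neuron 1, M neuron 3, M layer 1 or M layer 2). In P the count of 3 became 0 without the signal filter, 6 with one median, 1 without the trend, 9 with only the groups compared, 0 with the station block, 7 without M neuron 3 and M layer 1, 6 with the mean over probe sets, and 0 to 6 leaving out 1 array (0 or 1 without any P neuron array, P layer 1 or P layer 3, and 6 without M layer 1). Over both layer types 11 became 0 with the station block and 9 to 14 leaving out 1 array. Calls over all tested probe sets moved with these settings too. In M they were 2819 of 26383 in the main fit and 1663 with only the groups compared. There they were 36 with the station block and 828 without M neuron 3 and M layer 1. In P the same settings gave 2682, 3725, 112 and 3439. Over both layer types the calls were 6355 in the main fit and 626 with the station block. Without the signal filter the calls were 1918 in M and 1810 in P, of 52766. The station block leaves few arrays to compare captures, and the cause of the other changes was not tested. Signals under the array medians, as for KCNJ9 on the rhesus array, limit what could be seen.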

Other observations

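Genes whose deviations from the 4 group means were most like those of KCNJ6 are given as a description over 12 arrays, with no test. They were CERCAM (r = 0.934), WDR18 (r = 0.932), NPAS4 (r = 0.925), DHX33 (r = 0.924) and ANAPC1 (r = 0.907). Over the arrays as they stand, without removing group means, the same genes had r of -0.032, 0.056, 0.51, 0.33 and 0.32 with KCNJ6. NPAS4, an activity-dependent transcription factor of neurons, had mean signals of 44.9 ± 36.1 (SD, n = 3) in M neurons, 29.4 ± 13.8 (SD, n = 3) in P neurons, 35.2 ± 25.9 (SD, n = 3) in M layers and 33.3 ± 13.8 (SD, n = 3) in P layers. ANAPC1, a subunit of the anaphase-promoting complex, was at 513 ± 328 (SD, n = 3), 522 ± 115 (SD, n = 3), 471 ± 216 (SD, n = 3) and 410 ± 30.9 (SD, n = 3) in the same order.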
